A study of Mus musculus with 6 samples.

Results

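The G1 cyclins and their kinases are the 9 genes for the D-type cyclins (Ccnd1, Ccnd2, Ccnd3), the E-type cyclins (Ccne1, Ccne2), the germ-line A-type cyclin Ccna1 and the kinases Cdk2, Cdk4 and Cdk6, taken by Ensembl ID out of 22274 genes in the deposited count table. All 9 had a row. The table gives the symbol Cdk6 to 1 further row, whose ID (ENSMUSG00000097327) belongs to E030030I06Rik in the reference, so that row was left out and Cdk6 was taken as ENSMUSG00000040274. Whole testes labelled day 9 were sequenced as messenger RNA in 3 libraries from conditional Dcaf2 knockout mice (cKO) and 3 from mice labelled control. The cKO mice came from a cross that put floxed Dcaf2 alleles (Dcaf2 fl/fl) together with Stra8-Cre, a Cre driven in spermatogonia, so the somatic cells of the testis are not its target. The labels do not give the alleles that the controls carry, the event from which days were counted, or whether the libraries came from different animals. The p-values below therefore reflect only how far these libraries spread, and that spread may be technical.

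Cyclins are the regulatory subunits of cyclin-dependent kinases. D-type cyclins bind CDK4 and CDK6 and are made in response to growth signals; E-type cyclins bind CDK2 later in G1, and both kinds of complex phosphorylate the retinoblastoma proteins and so release E2F factors that turn on genes of DNA synthesis. In the mouse testis, cyclin D1 and D2 are known from spermatogonia, and cyclin D2 also from gonadal somatic cells, cyclin D3 is known from Sertoli and Leydig cells as well as germ cells, and cyclin A1 is restricted to male germ cells from meiotic prophase on. CDK2 is needed for meiotic prophase in both sexes. DCAF2, the product of Dcaf2, is a substrate receptor of the CRL4 ubiquitin ligase, and one of its substrates is p21, an inhibitor of the CDK2 complexes.

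The libraries held 15407007 to 18372964 counts. Control library 1 stood apart from the other controls. Its counts differed from theirs by a chi-square of 51.9 and 26.7 per degree of freedom, against 15.5 between control libraries 2 and 3 and 4.36 to 6.40 between cKO libraries. Dtl, the current symbol of the targeted gene, had 41.7, 43.8 and 51.5 CPM (counts relative to the scaled library size) in the cKO libraries and 42.6, 50.3 and 77.4 CPM in the controls (edgeR quasi-likelihood test, adjusted p = 0.281), and the groups overlapped. A whole-gene count does not separate the deleted part from the rest and includes somatic cells, so it does not check the labels. Of 23 tested pan-germ-cell markers 22 were lower in cKO, and the summed level of all 24 was 668 to 843 CPM in cKO and 1837 to 2395 CPM in control libraries. The summed level of 20 Sertoli cell markers, of which 9 rose, was 9192 to 10503 CPM in cKO and 6657 to 9123 CPM in control. For 7 interstitial stroma markers, of which 4 rose, it was 3890 to 3984 CPM in cKO and 2544 to 3006 CPM in control, and for 9 Leydig cell markers, of which 3 rose, 1341 to 1379 CPM in cKO and 678 to 1203 CPM in control. Not every list moved as a whole. Of 15 markers of undifferentiated spermatogonia, 7 fell, 6 did not pass, and Lhx1 (2.07-fold) and Etv5 (1.26-fold) rose. Of 7 peritubular myoid cell markers 1 rose (Smtn) and of 5 erythroid markers 0 passed (edgeR). No marker of the pan-germ-cell, Sertoli, stroma and Leydig lists was at 0 in all libraries of a group. Of genes that define these cells, Ddx4 (germ cells) was at 79.2 ± 10.3 CPM in cKO and 196 ± 26.8 CPM in control libraries, Kit (differentiating spermatogonia) at 51.5 ± 7.28 CPM in cKO and 134 ± 43.5 CPM in control, and Sycp3 (meiotic prophase) at 10.6 ± 0.401 CPM in cKO and 47.0 ± 6.74 CPM in control. Sox9 (Sertoli cells) was at 222 ± 6.98 CPM in cKO and 163 ± 25.0 CPM in control libraries, and Hsd17b3 (Leydig cells) at 128 ± 8.34 CPM in cKO and 73.1 ± 15.6 CPM in control (SD, n = 3 each). Control library 1 held the control value nearest to cKO in each of the sums of those 4 lists. In whole testes, fewer cells of a type and less RNA per cell cannot be told apart.

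Of the 8 members that passed the filter on low counts, 3 were lower in cKO testes (Ccnd1, Ccne1 and Ccne2), 1 was higher (Ccnd2), and 4 did not pass the test (Ccnd3, Cdk2, Cdk4 and Cdk6). Among all 14424 tested genes, 13.9% were lower and 11.1% higher, 25.0% in all (edgeR, Benjamini-Hochberg adjusted p under 0.05 over all tested genes). All 4 that passed were cyclins, and none of the 3 tested kinases passed with edgeR, DESeq2 or limma-voom, also at an unadjusted p under 0.05 with edgeR. The cKO and control values of the 4 cyclins did not overlap, as was so for 44.6% of all tested genes. The median log2 fold change, cKO over control, was 0.07 over the 8 members and 0.03 over all tested genes. These directions are relative to the whole library. Scaled to the pan-germ-cell markers, the log2 fold changes of Ccnd1, Ccne1 and Ccne2 were above 0, as given further on. Those of Ccne1 and Ccne2 then passed the test, as did 13578 of the 14424 tested genes, 13505 of them higher.

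**Figure D1:**
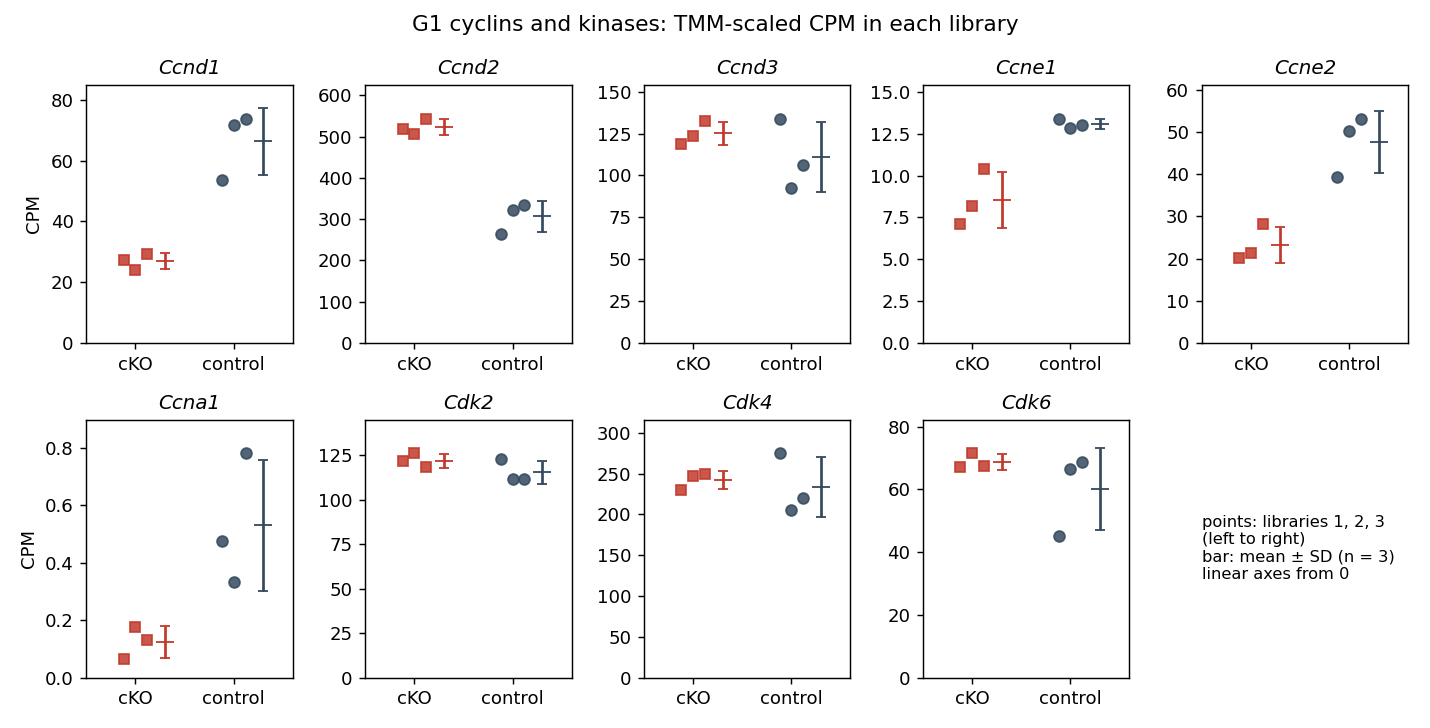
CPM of each gene (y axis, linear from 0) in the 3 cKO libraries (red squares) and the 3 control libraries (dark circles), with the mean and SD beside them. Ccnd2 was at 507 to 544 CPM in cKO and 263 to 334 CPM in control, Ccnd1 at 24.0 to 29.4 CPM in cKO and 53.6 to 73.9 CPM in control, and the kinase values of both groups overlapped.

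The 3 D-type cyclin genes did not move alike. Ccnd1 (ENSMUSG00000070348), for cyclin D1, had 27.4, 24.0 and 29.4 CPM in the cKO libraries, against 53.6, 71.7 and 73.9 CPM in the controls. Every cKO library lay below every control, and control library 1 was the lowest control. Ccnd1 fell 2.47-fold (edgeR adjusted p = 0.000777), a log2 change of -1.30 with an SE of 0.141 and a 95% interval of -1.62 to -0.98.

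Ccnd2 (ENSMUSG00000000184), for cyclin D2, was the one tested member that rose. It had 519, 507 and 544 CPM in the cKO libraries, against 263, 323 and 334 CPM in the controls. All 3 cKO values were higher than all 3 control values and lay closer together (SD 18.6 against 38.1 CPM). Ccnd2 rose 1.71-fold (edgeR adjusted p = 0.00251), a log2 change of 0.77 with an SE of 0.111 and a 95% interval of 0.52 to 1.02.

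Ccnd3 (ENSMUSG00000034165), for cyclin D3, had 119, 124 and 133 CPM in cKO and 134, 92.7 and 106 CPM in control libraries. Control library 1 was the highest of the 6, so the groups overlapped. The log2 fold change of 0.17 did not pass (95% interval -0.13 to 0.48, edgeR adjusted p = 0.378). Leaving out control library 1 gave 0.31, which passed (adjusted p = 0.0217).

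Levels of different genes were compared on the FPKM scale, which is per transcript length. In cKO libraries the order of mean FPKM was Cdk4 (139 ± 6.31), Ccnd2 (84.4 ± 2.94), Ccnd3 (67.4 ± 3.56), Cdk2 (52.3 ± 1.48), Cdk6 (7.87 ± 1.88), Ccne2 (7.76 ± 1.46), Ccnd1 (7.03 ± 0.735), Ccne1 (4.49 ± 0.513) and Ccna1 (0.120 ± 0.0917). In control libraries it was Cdk4 (135 ± 20.2), Ccnd3 (61.4 ± 9.37), Ccnd2 (52.1 ± 5.43), Cdk2 (51.8 ± 3.42), Ccnd1 (18.1 ± 2.97), Ccne2 (16.5 ± 2.49), Cdk6 (9.68 ± 2.30), Ccne1 (6.82 ± 0.0854) and Ccna1 (0.523 ± 0.352; SD, n = 3 each). In cKO libraries the means of Cdk6, Ccne2 and Ccnd1 lay within reach of their SDs. In controls so did those of Ccnd3, Ccnd2 and Cdk2, and those of Ccnd1 and Ccne2. Compared within each library, Ccnd3 was above Ccnd2 and Cdk2, and Ccnd1 above Ccne2, in every control. The 4 genes at the top were the same in both groups. By mean FPKM Ccnd1 stood below Cdk6 in cKO libraries, within their spread, and above it in controls. In cKO library 3 Ccnd1 (7.66 FPKM) was above Cdk6 (5.72 FPKM).

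The D-type cyclins summed to 157, 153 and 166 FPKM in cKO and 133, 125 and 137 FPKM in control libraries. On this scale every cKO sum was above every control sum. Unlike the shares that follow, the level of the D-type sum depends on how the libraries were scaled, and it was not tested. Ccnd2 made up 54.0%, 53.1% and 52.4% of that sum in cKO libraries, against 34.9%, 42.3% and 41.6% in controls. Ccnd1 made up 4.58%, 4.06% and 4.61% in cKO libraries and 11.1%, 15.3% and 14.9% in controls. Neither of these shares overlapped between the groups, with Ccnd2 the higher and Ccnd1 the lower in cKO. The share of Ccnd3 overlapped, with 41.4% to 43.0% in cKO and 42.4% to 54.0% in control libraries. In control library 1 Ccnd3 was the largest D-type cyclin by FPKM, at 71.6 FPKM beside 46.3 FPKM of Ccnd2, and in control libraries 2 and 3 Ccnd2 and Ccnd3 were near each other. In all 3 cKO libraries Ccnd2 was the largest. The ratio of Ccnd2 to Ccnd1 FPKM was 11.8, 13.1 and 11.4 in cKO and 3.13, 2.76 and 2.79 in control libraries. A ratio within a library does not depend on how libraries are scaled, and this one was alike in control library 1 and the other controls, although the level of each gene was lower there.

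**Figure D2:**
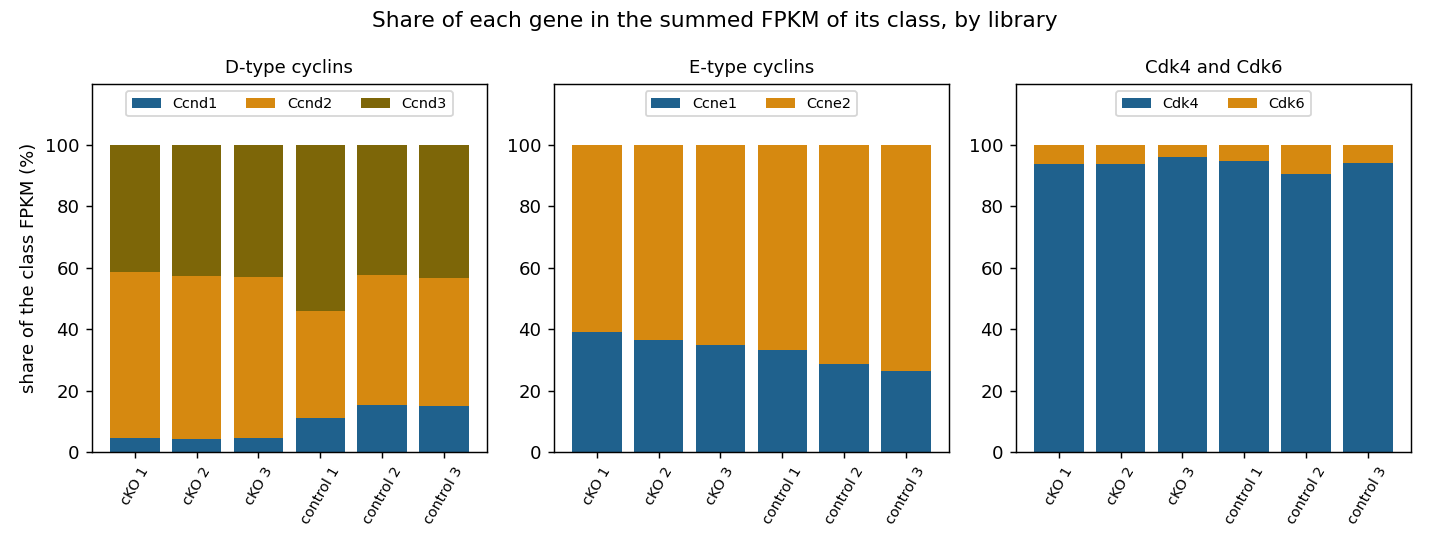
Stacked bars give, for each library (x axis), the percentage of the summed FPKM of a class that each gene holds, for D-type cyclins, E-type cyclins and the Cdk4 and Cdk6 pair. Ccnd1 held 4.06% to 4.61% of D-type FPKM in cKO libraries and 11.1% to 15.3% in controls, and Ccne2 held 60.8% to 65.1% of E-type FPKM in cKO and 66.7% to 73.5% in control libraries.

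Both E-type cyclin genes fell. Ccne2 (ENSMUSG00000028212), for cyclin E2, had 20.2, 21.3 and 28.2 CPM in cKO libraries, against 39.3, 50.2 and 53.2 CPM in controls. The groups were apart, with cKO library 3 the highest of its group and control library 1 the lowest of its own. Ccne2 fell 2.05-fold (edgeR adjusted p = 0.00329), a log2 change of -1.03 with an SE of 0.160 and a 95% interval of -1.39 to -0.67.

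Ccne1 (ENSMUSG00000002068), for cyclin E1, had 7.09, 8.16 and 10.4 CPM in cKO libraries and 13.4, 12.8 and 13.0 CPM in controls. The controls were close together and the cKO libraries spread more, again with cKO library 3 the highest. Ccne1 fell 1.53-fold (edgeR adjusted p = 0.0259), a log2 change of -0.62 with an SE of 0.165 and a 95% interval of -0.99 to -0.25. Ccne1 no longer passed when cKO library 1 (log2 fold change -0.50, adjusted p = 0.106), cKO library 2 (-0.58, 0.102) or control library 3 (-0.62, 0.0774) was left out. The transcript length implied by count, FPKM and library total for Ccne1 was 1599 bases in cKO library 1 and 1888 to 2001 bases in the other libraries, so its FPKM is a little less steady than its count.

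The E-type cyclins summed to 11.1, 11.2 and 14.5 FPKM in cKO libraries and 20.7, 23.9 and 25.4 FPKM in controls. Ccne2 was the larger of the pair in every library. The ratio of Ccne2 to Ccne1 FPKM was 1.55, 1.75 and 1.87 in cKO libraries and 2.00, 2.51 and 2.77 in controls, so Ccne2 held a smaller part of the E-type sum in each cKO library than in any control.

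The region around the start of Ccne1 is shown because Ccne1 is the one cyclin past the threshold that the RefSeq promoter table lists; Ccnd1, Ccnd2 and Ccne2 have no entry in it. It spans chr7:38107441-38107740 on the minus strand of GRCm38.p6, from 250 bases before to 50 after the RefSeq start, and capitals mark GGGCGG, the core letters of an Sp1 site, on either strand.
Ccne1: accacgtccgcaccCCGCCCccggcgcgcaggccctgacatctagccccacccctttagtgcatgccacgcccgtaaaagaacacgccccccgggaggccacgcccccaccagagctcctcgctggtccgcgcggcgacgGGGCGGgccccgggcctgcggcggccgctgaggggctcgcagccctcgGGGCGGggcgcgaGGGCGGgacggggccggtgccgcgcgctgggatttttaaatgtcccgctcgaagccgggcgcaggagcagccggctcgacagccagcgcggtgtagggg
GGGCGG or its reverse complement stood 4 times in this window, and 35.7% of all 32851 promoters of this length held it at least once. It also stood 6 times in the window of Cdk2, 3 times in those of Cdk4 and Ccna1, 2 times in each of Ccnd3, and 0 times in that of Cdk6. The E2F-type letters TTTCGCGC and TTTGGCGC, searched on both strands, were in none of the 7 windows of the 6 members listed, where 0.323% and 0.514% of all promoters held them. Other forms of the E2F site were not searched, so this does not show that the windows lack such sites. These matches only describe the letters of the window.

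Ccna1 (ENSMUSG00000027793), for cyclin A1, was near the floor of the data and was removed by the filter on low counts, so it has no test among the 14424 genes. It had 1, 3 and 2 counts in the cKO libraries, against 9, 6 and 13 in the controls, and each cKO library had fewer than any control. Per total count, the cKO level was 0.231 of the control level, with a 95% interval of 0.0781 to 0.568 (Clopper-Pearson, summed counts 6 and 28, counting error only). With no filter its log2 fold change was -2.01 and did not pass (edgeR adjusted p = 0.0673 over 18333 genes). Per 1000 pan-germ-cell counts, Ccna1 had 0.0887 to 0.264 in cKO and 0.140 to 0.330 in control libraries, and these ranges overlapped.

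None of the 3 kinase genes passed the test. Cdk4 (ENSMUSG00000006728), whose product pairs with D-type cyclins, had 229, 247 and 249 CPM in cKO libraries, against 275, 206 and 220 CPM in controls. Control library 1 was the highest of the 6 and control library 2 the lowest. The log2 fold change was 0.05, with a 95% interval of -0.22 to 0.32 (edgeR adjusted p = 0.786).

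Cdk2 (ENSMUSG00000025358), the partner kinase of E-type and A-type cyclins, had 122, 126 and 118 CPM in cKO libraries and 123, 111 and 112 CPM in controls. Its groups overlapped through control library 1, and the log2 fold change was 0.08 (95% interval -0.12 to 0.28, edgeR adjusted p = 0.539). The ratio of Cdk2 to Ccne2 FPKM was 7.78, 7.57 and 5.37 in cKO libraries, against 4.03, 2.88 and 2.71 in controls.

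Cdk6 (ENSMUSG00000040274), the second D-type partner kinase, had 67.2, 71.5 and 67.4 CPM in cKO libraries and 45.1, 66.6 and 68.8 CPM in controls. Control library 1 was well below the other 5 libraries, and the groups overlapped. The log2 fold change was 0.19 (95% interval -0.15 to 0.54, edgeR adjusted p = 0.381), and with that library left out it was -0.0030 (adjusted p = 0.98). On the FPKM scale Cdk4 was far above Cdk6 in every library, at 132, 142 and 143 FPKM in cKO and 157, 117 and 131 FPKM in control libraries, while Cdk6 was at 8.69, 9.19 and 5.72 FPKM in cKO and 8.85, 12.3 and 7.92 FPKM in control libraries. The Cdk6 share of that pair was 3.84% to 6.20% in cKO and 5.35% to 9.50% in control libraries, and these overlapped. Cdk6 FPKM is less steady than its counts. The implied transcript length was 7603, 7539 and 11517 bases in cKO and 5258, 5440 and 8973 bases in control libraries. For Cdk2, by contrast, it was 2274 to 2277 bases in cKO and 2274 to 2279 bases in control libraries.

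The region around the start of Cdk4 is given because Cdk4 had the highest FPKM of the set. It spans chr10:127063285-127063584 on the plus strand of GRCm38.p6 (RefSeq), and capitals mark CACGTG, the E-box letters that MYC and related factors bind.
Cdk4: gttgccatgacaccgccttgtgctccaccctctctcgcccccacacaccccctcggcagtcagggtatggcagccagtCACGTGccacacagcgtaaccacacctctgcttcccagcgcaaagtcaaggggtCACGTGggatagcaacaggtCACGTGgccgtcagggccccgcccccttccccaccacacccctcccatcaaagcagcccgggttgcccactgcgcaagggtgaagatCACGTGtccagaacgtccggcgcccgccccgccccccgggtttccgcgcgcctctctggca
CACGTG, which reads the same on both strands, stood 4 times in this window and once in that of Cdk6, and in no window of the other listed members; 7.15% of all promoters held it.

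Since nearly all pan-germ-cell markers were lower and the summed Sertoli cell markers higher in cKO libraries, the members were also set against each of these lists. Per 1000 pan-germ-cell counts, Ccnd1 had 37.3, 36.0 and 34.8 counts in cKO libraries, against 29.2, 29.9 and 31.2 in controls. Per count of these markers Ccnd1 was thus slightly higher in cKO, and control library 1 was no longer apart. With libraries scaled by these markers that difference did not pass (edgeR adjusted p = 0.185). Counts of members and markers come from whole testes, and not every spermatogonial marker fell as this list did. Ccne2 had 27.5, 31.9 and 33.5 counts per 1000 pan-germ-cell counts in cKO and 21.4, 20.9 and 22.5 in control libraries. Ccne1 had 9.66, 12.2 and 12.3 in cKO and 7.29, 5.35 and 5.52 in control libraries. Ccnd2 had 707, 759 and 645 in cKO and 143, 135 and 141 in control libraries.

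With library sizes set by the pan-germ-cell genes, the median log2 fold change of all genes was 1.57, a shift of 1.54. Of all 14424 tested genes 13578 then passed, 13505 of them higher in cKO. Beside that share, 7 of the 8 tested members passed as higher in cKO, all but Ccnd1. Ccnd1 was then at 0.26 (edgeR adjusted p = 0.185), Ccne2 at 0.52 (0.0161) and Ccne1 at 0.91 (0.000986), so the direction of all 3 turned, while each lay below the median of all genes, by -1.31, -1.05 and -0.66. Ccnd2 was at 2.33, or 0.76 over that median, and the 3 kinases and Ccnd3 were at 1.57 to 1.77. A change of library sizes moves all genes by nearly the same amount, so distances from the median are not a second test.

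In the summed counts of the Sertoli cell genes the most abundant genes weigh most. Clu was at 2981 ± 298 CPM in cKO and 2473 ± 571 CPM in control libraries and did not pass (edgeR adjusted p = 0.247). Ctsl was at 1709 ± 153 CPM in cKO and 1182 ± 210 CPM in control libraries and rose (edgeR adjusted p = 0.0234). With library sizes set by the Sertoli cell genes, the median of all genes was -0.37, a shift of -0.40. Of all 14424 tested genes 4371 then passed as lower and 29 as higher. Ccnd2 was then at 0.35 and did not pass (edgeR adjusted p = 0.227). Per 1000 Sertoli cell counts it had 52.5, 48.3 and 59.1 in cKO and 28.9, 46.4 and 50.2 in control libraries, which overlapped. Ccnd1, Ccne2 and Ccne1 passed as lower under this scaling, at -1.73, -1.45 and -1.01. Ccnd3, Cdk2, Cdk4 and Cdk6 were at -0.20, -0.32, -0.33 and -0.25 and did not pass.

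**Figure D3:**
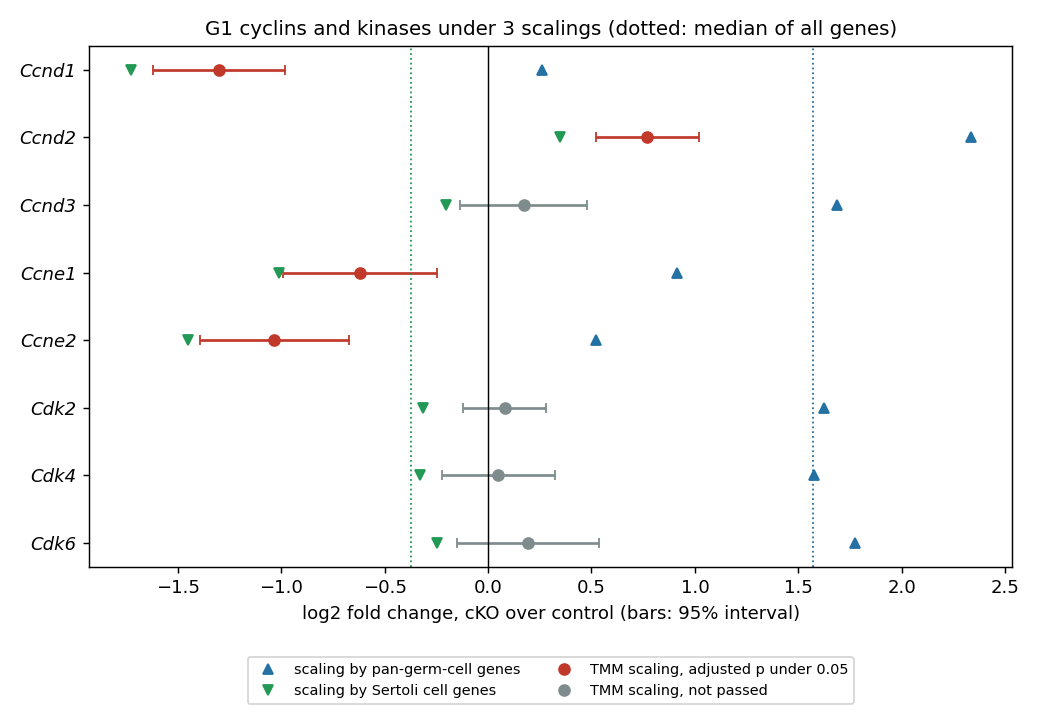
Log2 fold change, cKO over control (x axis), of the 8 tested genes (rows) under the scaling of the report (circles with 95% intervals, red where the adjusted p is under 0.05), under scaling by pan-germ-cell genes (blue) and by Sertoli cell genes (green), with dotted lines at the median of all genes in each of these last settings. Ccnd1, Ccne2 and Ccne1 lie left of that median and Ccnd2 right of it under each scaling, although the side of 0 changes for Ccnd1, Ccne1 and Ccne2. A change of scaling moves all genes by nearly the same amount, so the side of the median could hardly differ between scalings.

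Some members share transcript sequence with neighbours on the opposite strand, and the sources used here do not say whether strand was used in counting. In GENCODE M21 transcripts, 26.1% of the 75-base windows of Ccnd1 also lie in LTO1, 14.5% of those of Ccne2 in Ints8, 22.9% of those of Cdk4 in Tspan31 and 8.70% of those of Ccnd3 in Bysl, all on the opposite strand. Reads from these stretches cannot be told apart without strand. LTO1 was at 21.5 ± 1.87 CPM in cKO and 25.4 ± 2.07 CPM in control libraries (SD, n = 3 each), and Ints8 at 83.5 ± 6.97 CPM in cKO and 101 ± 8.11 CPM in control libraries; neither passed (edgeR adjusted p = 0.164 and 0.0837). Tspan31 was at 59.9 ± 1.93 CPM in cKO and 48.3 ± 8.23 CPM in control libraries and did not pass (edgeR adjusted p = 0.0979). Bysl fell, with 21.0 ± 0.724 CPM in cKO and 28.6 ± 1.77 CPM in control libraries (a log2 change of -0.45, edgeR adjusted p = 0.015). Of the 9.67% of Ccnd3 windows found in any other gene, the rest lie in Ccnd3-ps, a pseudogene, and 4.46% of Ccnd2 windows lie in Gm43126. Of Ccna1 windows 5.5% lie in 4931419H13Rik, and of Cdk6 windows 0.627% lie in other genes. Ccne1 and Cdk2 shared no window with another gene.

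The members fell into groups by how their levels ran over the 6 libraries. Likeness was measured as the root mean square difference of centred log2 CPM, in log2 units. Ccnd3 and Cdk4 were nearest to each other (0.0775), then Cdk2 and Cdk4 (0.095), and Ccnd3 and Cdk2 (0.141). Ccnd1 and Ccne2 were at 0.172, Ccne1 and Ccne2 at 0.255, and Ccnd1 and Ccnd2 were the farthest pair at 1.04. To find genes most like a member, predicted genes (Gm or Rik symbols) and IDs without a symbol were passed over. That left 10740 other genes whose mean log2 CPM reached 3. Among them, those most like Ccnd1 were Pcgf5 (0.0477) and Tdrd5 (0.0585), itself one of the pan-germ-cell markers. Igf1 (0.0329), a growth factor gene listed here among stroma markers, and Tpcn1 (0.061) were most like Ccnd2. For Ccne1 they were Ifrd2 (0.0199) and Nup43 (0.0577), and for Ccne2 Kbtbd8 (0.0765) and Pet2 (0.0794). These are descriptions over 6 libraries of which 3 are cKO, so any gene with a like difference between the groups comes close.

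A further 40 genes of the cell-cycle machinery were read in 5 lists. These are not confined to G1 and S phase and hold genes of mitosis, such as Ccnb1, which fell. Of the 40 genes, 9 fell, 3 rose and 28 did not pass, with a median log2 fold change of -0.15. Beside the 13.9% and 11.1% of all tested genes, the lower count is the larger one here as well. Of 6 cyclins and kinases of S phase and mitosis, 3 fell and 0 rose (median -0.39). Ccnb3, a cyclin gene of early meiotic germ cells, had 0.780, 0.646 and 1.06 CPM in cKO libraries and 3.22, 8.25 and 9.38 CPM in controls. It fell 8.34-fold (edgeR adjusted p = 0.00263), the largest decrease among these 40 genes and the 8 tested members. Scaled by the pan-germ-cell genes, Ccnb3 was at a log2 fold change of -1.47 and still passed (edgeR adjusted p = 0.000751). Ccnb1, for the mitotic partner of CDK1, fell by 0.63 on the log2 scale (SE 0.0887, adjusted p = 0.0023), with 81.4 ± 4.62 CPM in cKO and 126 ± 3.19 CPM in control libraries.

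Of 10 activators and binding partners, 2 fell and 0 rose (median -0.29). Ccnh, for the cyclin of the kinase that activates CDKs, was at 37.5 ± 0.207 CPM in cKO and 54.8 ± 3.07 CPM in control libraries, and fell by 0.55 on the log2 scale (edgeR adjusted p = 0.00369). Cdc25c, for a phosphatase that activates CDK1, fell, with 11.6 ± 0.565 CPM in cKO and 16.1 ± 0.68 CPM in control libraries (edgeR adjusted p = 0.0217). It no longer passed when control library 3 (adjusted p = 0.0772) or any 1 cKO library (0.0683 to 0.101) was left out. Of 6 genes of inhibitory kinases and cyclin degradation, 1 fell and 0 rose (median 0.002). Fbxw7, for the ubiquitin ligase receptor that binds cyclin E for degradation, was at 30.5 ± 0.777 CPM in cKO and 44.5 ± 11.1 CPM in control libraries, and fell by 0.54 on the log2 scale (edgeR adjusted p = 0.0447). That call was lost without any 1 library other than control library 1 (adjusted p = 0.0979 to 0.137), and with limma-voom (adjusted p = 0.0688). Pkmyt1, for an inhibitory kinase of CDK1, was at 14.2 ± 4.42 CPM in cKO and 17.5 ± 2.42 CPM in control libraries and did not pass (adjusted p = 0.347).

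Of 7 CDK inhibitor genes, 1 rose and 1 fell (median -0.09). Cdkn1a, for p21, had 8.91, 6.99 and 9.23 CPM in cKO libraries and 6.28, 6.19 and 5.89 CPM in controls. Its groups did not overlap, as for 44.6% of all tested genes. Its log2 fold change of 0.45 did not pass (edgeR adjusted p = 0.0821). Cdkn1b, for p27, an inhibitor of CDK2 complexes, had 65.6, 65.9 and 63.6 CPM in cKO libraries and 49.8, 50.1 and 49.6 CPM in controls. It rose 1.31-fold (edgeR adjusted p = 0.0113), a log2 change of 0.38 (SE 0.0822), a call lost without cKO library 1 (adjusted p = 0.0594) or 2 (0.0702). Cdkn2a, whose locus encodes an inhibitor of CDK4 and CDK6 and a p53 regulator that whole-gene counts do not separate, had 3.77, 3.93 and 4.72 CPM in cKO and 16.9, 15.0 and 17.4 CPM in control libraries, and fell 3.96-fold (adjusted p = 0.000219). Scaled by the pan-germ-cell genes, Cdkn2a was at a log2 fold change of -0.45 and did not pass (edgeR adjusted p = 0.0891). Of 11 retinoblastoma family and E2F genes, 2 fell and 2 rose (median -0.02). Rbl2, for the retinoblastoma-like protein p130 of resting cells, rose 1.48-fold, with 92.6 ± 6.43 CPM in cKO and 62.7 ± 4.32 CPM in control libraries (edgeR adjusted p = 0.00511), but did not pass when scaled by the Sertoli cell genes (log2 fold change 0.15, adjusted p = 0.549). E2f5, for an E2F factor that p130 binds, fell 1.69-fold, with 20.3 ± 2.32 CPM in cKO and 34.2 ± 1.55 CPM in control libraries (adjusted p = 0.00304). With one library left out, the number of these 40 genes past the threshold was 7 to 16: 7 without cKO library 1 or 2, 8 without control library 3, and 12 with all libraries. Scaled by the pan-germ-cell genes, 37 of these 40 genes were higher and 1 (Ccnb3) lower, beside 13505 and 73 of all 14424 tested genes. Scaled by the Sertoli cell genes, 0 were higher and 22 lower, beside 29 and 4371 of all tested genes.

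**Figure D4:**
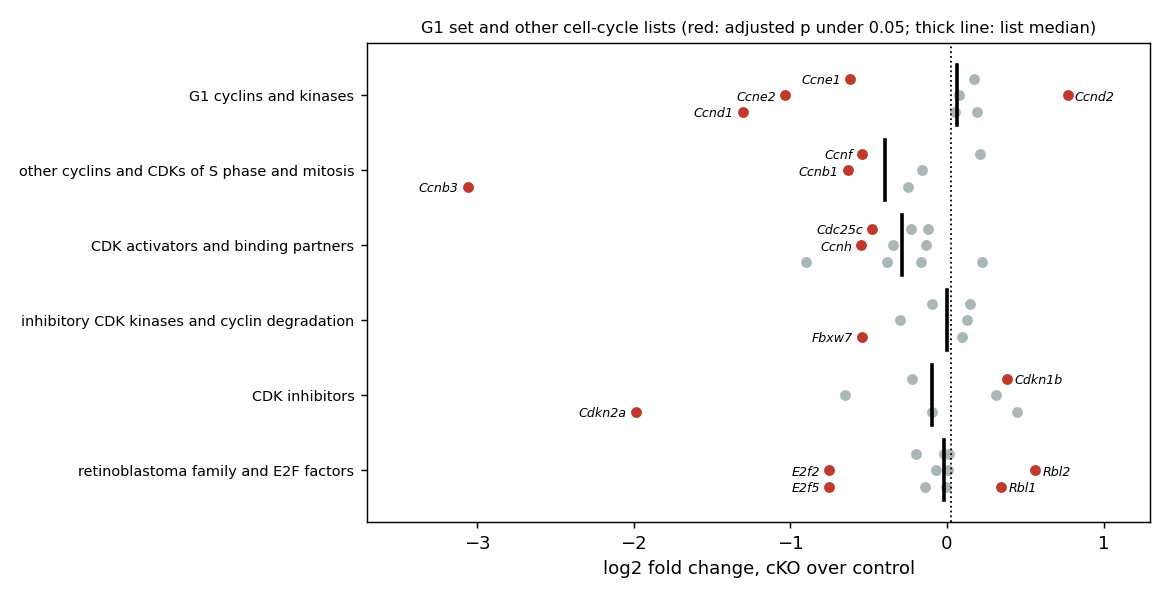
Log2 fold change, cKO over control (x axis), of each tested gene in the G1 set and 5 other cell-cycle lists (rows), red and named where the edgeR adjusted p is under 0.05, with a thick line at each list median and a dotted line at the median of all tested genes (0.03). Ccnb3 at -3.06 and Cdkn2a at -1.99 lie farthest left, and Ccnd2 at 0.77 farthest right. Scaled by pan-germ-cell genes, 37 of the 40 genes in the other lists are higher, as are 13505 of all 14424 tested genes.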

How the data were processed

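The authors deposited 1 table that holds, for each gene and library, a count and a value in FPKM. StringTie 1.3.1 and RSEM are named, with no role, in the submitters' processing notes. The sources used here give neither the aligner, build and annotation nor whether strand was used. The deposited counts were taken as rounded expected counts, because 3 to 21 genes per library have a count of 0 beside an FPKM above 0, and were used as deposited. The FPKM values, scaled by the authors to length and library size, served to set levels of different genes side by side and were not tested. Symbols came from the reference table (22219 of 22274 IDs matched).

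In edgeR 4.0.16, filterByExpr chose the genes to test (minimum count 10; the genes left out held 0.063% of counts), libraries were scaled by TMM, and genes were tested with glmQLFit and glmQLFTest in R 4.3.3 without covariates. SE is the log2 fold change divided by the square root of F. Fitting was tested on simulated data. Libraries with the same number were not treated as pairs: their deviations from group means correlated at -0.07, -0.08 and 0.07. Alternatives were DESeq2 1.42.0, limma-voom (limma 3.58.1), other scalings and filters, the replicate number as a block, and each library left out. Named genes were all members, Dtl, 5 marker genes and the 2 genes of each machinery list with the smallest p. The 2 genes most like each member past the threshold were also named. Ccnf, E2f2 and Rbl1 (the other machinery genes past the threshold), Cdkn1a, Lhx1, Etv5 and Smtn were named after their values were seen. Overlapping neighbours were named after seeing the transcripts. The members and lists were chosen with earlier results of these data known.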

Additional observations from a re-analysis of the deposited data

How the results depend on the processing

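Ccnd1, Ccne1, Ccne2 and Ccnd2 kept direction and call with DESeq2, limma-voom, with RLE, total-count or upper-quartile scaling, without a filter, with a stricter one (3 or more libraries at 1 CPM or above) and with the replicate number as a block. The block gave 2822 changed genes against 3607 and 4 members past the threshold, as without it; it ended the calls of Cdc25c (adjusted p = 0.0556) and Rbl1 (0.0566). Same-numbered libraries did not deviate together.

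Scaling by pan-germ-cell genes turned Ccnd1 to 0.26, Ccne1 to 0.91, Ccne2 to 0.52, Ccnb1 to 0.91, Ccnf to 1.001, Ccnh to 0.99, Cdc25c to 1.07, Fbxw7 to 1.04, E2f5 to 0.79 and E2f2 to 0.80. It ended the call of Cdkn2a (-0.45). It took Ccnd3 (1.69), Cdk2 (1.62), Cdk4 (1.57) and Cdk6 (1.77) past the threshold. It gave 7 members, 38 of the 40 machinery genes and 13578 of all 14424 tested genes, 99.5% of these 13578 higher. By construction it sets the fall of the summed pan-germ-cell markers to 0. Scaling by Sertoli cell genes ended the calls of Ccnd2 (0.35) and Rbl2 (0.15). It turned Ccnd3 to -0.20, Cdk2 to -0.32, Cdk4 to -0.33, Cdk6 to -0.25, Cdkn1b to -0.019 and Rbl1 to -0.066. It put 22 machinery genes and 4400 of all 14424 tested genes past the threshold, with 0.659% of these 4400 higher. The call of Fbxw7 was lost with limma-voom (-0.51), and that of Rbl1 with RLE scaling (0.33), total-count scaling (0.28) and no filter (0.34). Total-count scaling put Cdk4 at -0.018 and 31.4% of calls higher, against 44.3%. Counts in place of FPKM turned the difference in the Cdk6 share, cKO minus control, to 1.34 percentage points from -1.47.

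With each library left out in turn, the log2 fold change ran from -1.46 to -1.22 for Ccnd1, 0.65 to 0.84 for Ccnd2, 0.048 to 0.31 for Ccnd3, -0.78 to -0.50 for Ccne1, -1.19 to -0.94 for Ccne2, 0.05 to 0.10 for Cdk2, -0.043 to 0.16 for Cdk4 and -0.0030 to 0.30 for Cdk6; Cdk4 was lowest without control library 2. The number of genes past the threshold ran from 1355 (without cKO library 2) to 5255 (without control library 1), with 1795 without control library 3, 1444 without cKO library 1 and 1933 without cKO library 3; of members 3 to 5 and of machinery genes 7 to 16. Fewer libraries also give the test less power. Ccna1, at 1 to 13 counts per library, is limited by depth.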
